A study of Mus musculus with 16 samples.

Results

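Glutathione S-transferases were followed across kidneys of MFP2-/- mice through 10 genes: Gsta2, Gsta3 and Gsta4 of the alpha class, Gstm1, Gstm2 and Gstm5 of the mu class, Gstt1 and Gstt3 of the theta class, Gstp1 of the pi class, and the microsomal enzyme Mgst1. Of these, 9 genes were measured, on 11 of the 20355 probes of the array; no probe carried the name Mgst1 in the annotation used, so it is not analysed here. The genes were chosen by family name, with the mean ratios of MFP2-/- over wild-type kidney on these same arrays in view. Those mean ratios are therefore given as a description, without a test. Each probe was kept on its own, because the cDNAs of related transferases can cross-hybridise.

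The tested animals were 4 male mice labelled MFP2-/-, aged 15 weeks, whose genetic background the labels do not give. MFP2 is peroxisomal multifunctional protein 2, the product of Hsd17b4, an enzyme that breaks down very long chain and methyl-branched fatty acids in peroxisomes. Their reference was 1 pool of kidney RNA from 5 wild-type males of the same age, labelled as the Swiss strain SWR/Ola Hsd. Each MFP2-/- mouse was hybridised against the pool on 4 cDNA arrays, 2 with the mutant in Cy5 and 2 with the mutant in Cy3, which gave 16 arrays. The pool is 1 control sample, so the spread among wild-type mice is not part of any error here, and a difference of strain cannot be told apart from the mutation. The arrays of a mouse were averaged, because they share RNA, which leaves an n of 4 mice at most. Whole kidney was used, and in such tissue fewer cells of a type and less RNA per cell cannot be told apart.

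Glutathione S-transferases join the tripeptide glutathione to electrophiles, among them lipid peroxidation products such as 4-hydroxynonenal and many foreign compounds. The conjugates leave the cell through transporters and are trimmed and acetylated to mercapturic acids, for which the proximal tubule of the kidney is a main site. Many genes of the alpha, mu and pi classes are targets of Nrf2 (encoded by Nfe2l2), a transcription factor that binds antioxidant response elements when oxidants or electrophiles inactivate its inhibitor Keap1.

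A value here is a log2 ratio of MFP2-/- over pool after each array was set to a median of 0, so that 0 stands for equality with the pool relative to the median probe. That direction is likely rather than settled. In the labels the mutant is channel 1 throughout, and a probe of the targeted gene, Hsd17b4 probe 4590, lay between -2.08 and -1.10 on all 8 arrays of mice 1 and 2, in both dye orientations. In mice 3 and 4 the same probe lay between -1.15 and 0.47. Its mouse values were -1.69, -1.50, -0.10 and -0.34, and limma's F-test between mice gave an adjusted p of 0.0421. The other Hsd17b4 probe, 1446, disagreed, at 0.02, 0.83, 0.34 and 0.52 in mice 1 to 4. A low Hsd17b4 value thus went with the label MFP2-/- on 1 probe in mice 1 and 2, and on neither probe in mice 3 and 4, so all 4 are called MFP2-/- here after their labels. The stretch of transcript that either probe covers is not known here, and a probe outside the deleted part would check nothing. With mice 1 and 2 only, an alternative added after seeing the data, the median over the members was 0.38 with 10 of 11 probes above 0, and in mice 3 and 4 it was 0.20, again with 10 above 0.

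The promoter windows of 3 members are shown because they stand beside the results below: Gsta2 and Gstm5 had probes above 0 on the most arrays among the members, and Gsta3 differed from Gsta2 within the alpha class. Each window runs 250 bases before to 50 bases after the gene's start, 5′ to 3′ on the gene's strand, from RefSeq on assembly GRCm38.p6. Capitals mark the core of the antioxidant response element, TGACNNNGC, searched on both strands.
Gsta2 (chr9:78347096-78347395, minus strand): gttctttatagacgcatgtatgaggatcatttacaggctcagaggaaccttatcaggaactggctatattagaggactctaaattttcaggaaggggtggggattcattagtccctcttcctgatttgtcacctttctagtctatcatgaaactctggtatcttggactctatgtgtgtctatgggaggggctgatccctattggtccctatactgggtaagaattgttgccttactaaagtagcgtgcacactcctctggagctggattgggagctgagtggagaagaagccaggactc
Gstm5 (chr3:107895604-107895903, plus strand): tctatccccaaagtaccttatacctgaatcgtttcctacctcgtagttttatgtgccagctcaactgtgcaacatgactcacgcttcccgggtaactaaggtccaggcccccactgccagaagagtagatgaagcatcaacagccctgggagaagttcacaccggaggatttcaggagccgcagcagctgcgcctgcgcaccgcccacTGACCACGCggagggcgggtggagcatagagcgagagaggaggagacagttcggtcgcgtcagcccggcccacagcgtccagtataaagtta
Gsta3 (chr1:21240335-21240634, plus strand): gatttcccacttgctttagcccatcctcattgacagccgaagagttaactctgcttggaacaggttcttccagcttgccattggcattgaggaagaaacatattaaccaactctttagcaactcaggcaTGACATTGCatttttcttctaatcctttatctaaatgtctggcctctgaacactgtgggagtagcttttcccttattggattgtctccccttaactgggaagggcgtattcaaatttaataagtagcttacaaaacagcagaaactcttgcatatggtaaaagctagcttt

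The core was found on the gene's own strand 42 bases before the start of Gstm5, as TGACCACGC, and 121 bases before the start of Gsta3, as TGACATTGC. The Gsta2 window held no match to this core. Of the 10 genes, 9 had a window, all but Gsta4, and with alternative starts these made 12 windows, of which 3 held the core; the remaining one is that of Mgst1, on the opposite strand. Among all 32851 promoter windows of the same length, 12.4% held it. A match is a description of the sequence and does not show binding. Other forms of the element and bases outside the windows were not searched, so a window without this core does not show that a gene lacks an element.

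The members lay mostly above the pool. The median of the mean ratio over the 11 probes was 0.31, beside 6.25e-05 over all 20187 probes measured well enough to test, and 10 of the 11 means were above 0, beside 50.0% of all probes. Above 0 in every mouse measured were 5 probes, a pattern shown by 10.2% of all probes, and above 0 on every array was 1 probe, beside 0.149% of all. Because the means were in view when the genes were named, nothing is read from these counts.

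**Figure D1:**
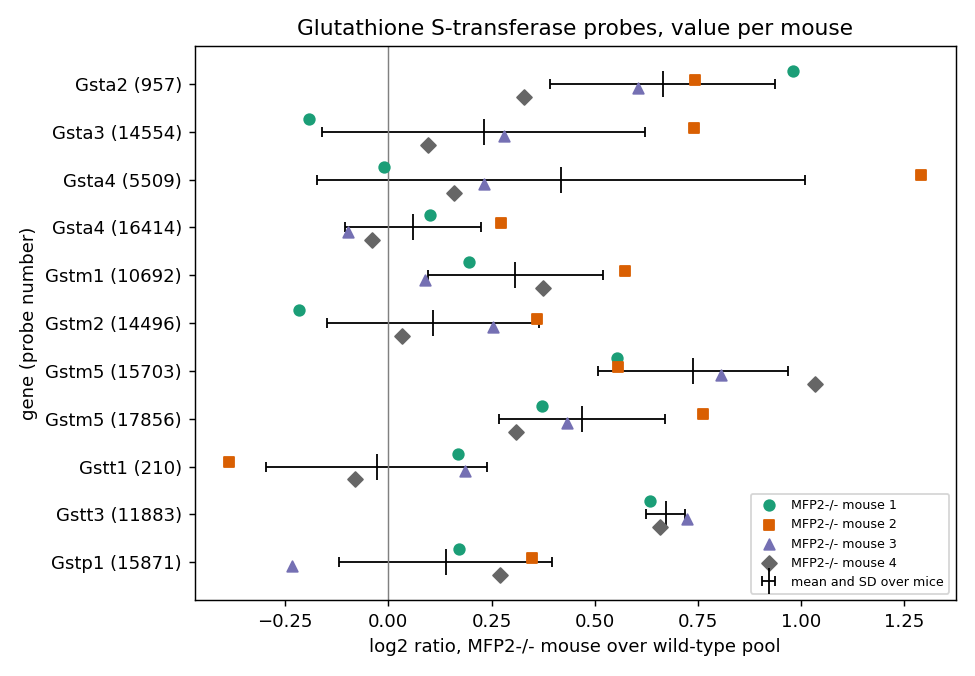
Log2 ratio of each MFP2-/- mouse over the wild-type pool (x axis) for the 11 glutathione S-transferase probes (y axis, probe number in brackets); symbols are mice, vertical ticks the mean and bars the SD over mice. Gsta2, Gstm1, both Gstm5 probes and Gstt3 lie right of 0 in every mouse measured, and mouse 2 is the highest for 7 probes.

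In the alpha class, Gsta2, an enzyme that reduces lipid hydroperoxides and conjugates foreign electrophiles, gave log2 ratios of 0.98, 0.74, 0.60 and 0.33 in mice 1 to 4. All mice were above the pool, mouse 1 by the most and mouse 4 by the least. The mean was 0.66 ± 0.27 (SD, n = 4), a 1.58-fold level. On single arrays the values ran between -0.09 and 1.24, and 15 of 16 were above 0, the exception being an array of mouse 4 with the mutant in Cy3.

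Gsta3, which in rodents conjugates aflatoxin epoxide, behaved differently from mouse to mouse. It stood at -0.19, 0.74, 0.28 and 0.10, a mean of 0.23 ± 0.39 (SD, n = 4), so mouse 1, the highest for Gsta2, was the lowest for Gsta3. The difference Gsta2 minus Gsta3, taken within each array, was 1.17 in mouse 1 with an SD of 0.158 over its 4 arrays, against 0.00 in mouse 2 with an SD of 0.623. In mice 3 and 4 it was 0.32 and 0.23, and over all arrays it was above 0 on 13 of 16. The repeats of Gsta3 agreed closely, with an SD between repeats of 0.103, lower than in all but 0.956% of probes.

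Gsta4, the alpha class enzyme with high activity toward 4-hydroxynonenal, was measured by 2 probes whose averages differed most in mouse 2. Probe 5509 gave -0.01, 1.29, 0.23 and 0.16, so its mean of 0.42 ± 0.59 (SD, n = 4) rests on mouse 2, and without that mouse it was 0.13. Probe 16414 gave 0.10, 0.27, -0.10 and -0.04, a mean of 0.06 ± 0.17 (SD, n = 4). The first probe exceeded the second by 1.02 in mouse 2, but with an SD of 1.14 over that mouse's arrays. In mice 1, 3 and 4 the difference was -0.11, 0.33 and 0.20, with SDs over arrays of 0.72, 0.29 and 0.47. Probe 5509 was the noisier one, with a highest single array of 2.44 and an SD between repeats of 0.698, larger than in 90.5% of probes.

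In the mu class, Gstm5, which in the mouse is best known from brain and testis, had the only member probe above 0 on every array, 17856. That probe gave 0.37, 0.76, 0.43 and 0.31 in mice 1 to 4, with a mean of 0.47 ± 0.20 (SD, n = 4), a 1.38-fold level. It was above 0 on all 16 arrays, between 0.01 and 0.98, and its lowest values were those of mouse 4 with the mutant in Cy3. The second Gstm5 probe, 15703, gave 0.55, 0.56, 0.81 and 1.03, a mean of 0.74 ± 0.23 (SD, n = 4). Its agreement between mice hides wide scatter: single arrays ran between -0.33 and 2.95, 11 of the 14 measured were above 0, and the SD between repeats was 1.11, larger than in 96.9% of probes.

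Gstm1, the main mu class enzyme of mouse liver, stood at 0.19, 0.57, 0.09 and 0.37, a mean of 0.31 ± 0.21 (SD, n = 4), with 13 of 16 arrays above 0. Gstm2, its neighbour in the gene cluster on chromosome 3, stood at -0.22, 0.36, 0.25 and 0.03, a mean of 0.11 ± 0.26 (SD, n = 4). All 4 arrays of mouse 1 were below 0 for Gstm2, between -0.294 and -0.130, and all 4 of mouse 2 were above it, between 0.323 and 0.435. Within arrays, Gstm5 (probe 17856) exceeded Gstm2 by 0.59, 0.40, 0.18 and 0.28 in mice 1 to 4 and on 14 of 15 arrays. The mu genes lie in 1 cluster and are alike in sequence, so part of a signal may be shared between their probes, which was not tested.

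In the theta class, which acts on small halogenated compounds, neighbours again differed. Gstt1 stood at 0.17, -0.39, 0.19 and -0.08, a mean of -0.03 ± 0.27 (SD, n = 4), and was the only member with a mean below 0. Gstt3, the adjacent gene on chromosome 10, stood at 0.63, 0.72 and 0.66 in mice 1, 3 and 4, a mean of 0.67 ± 0.05 (SD, n = 3). In mouse 2 Gstt3 had no value with the mutant in Cy3, and its other arrays gave -3.55 and 0.93, so the probe's narrow spread leaves out its most discordant mouse. With those arrays included, in a fit to single arrays that treats mice as random blocks, the Gstt3 ratio was 0.37. Its SD between repeats was 1.36, larger than in 98.5% of probes. Gstt3 minus Gstt1 was 0.47, 0.48 and 0.74 in mice 1, 3 and 4.

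Gstp1, the pi class enzyme and a widely expressed cytosolic transferase, stood at 0.17, 0.35, -0.23 and 0.27, a mean of 0.14 ± 0.26 (SD, n = 4). Mouse 3 was below 0 on all 4 arrays, between -0.300 and -0.185, and mouse 4 above 0 on all 4, between 0.237 and 0.321. The mouse genome carries the near-identical copy Gstp2 beside Gstp1, and the probe may read both.

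**Figure D2:**
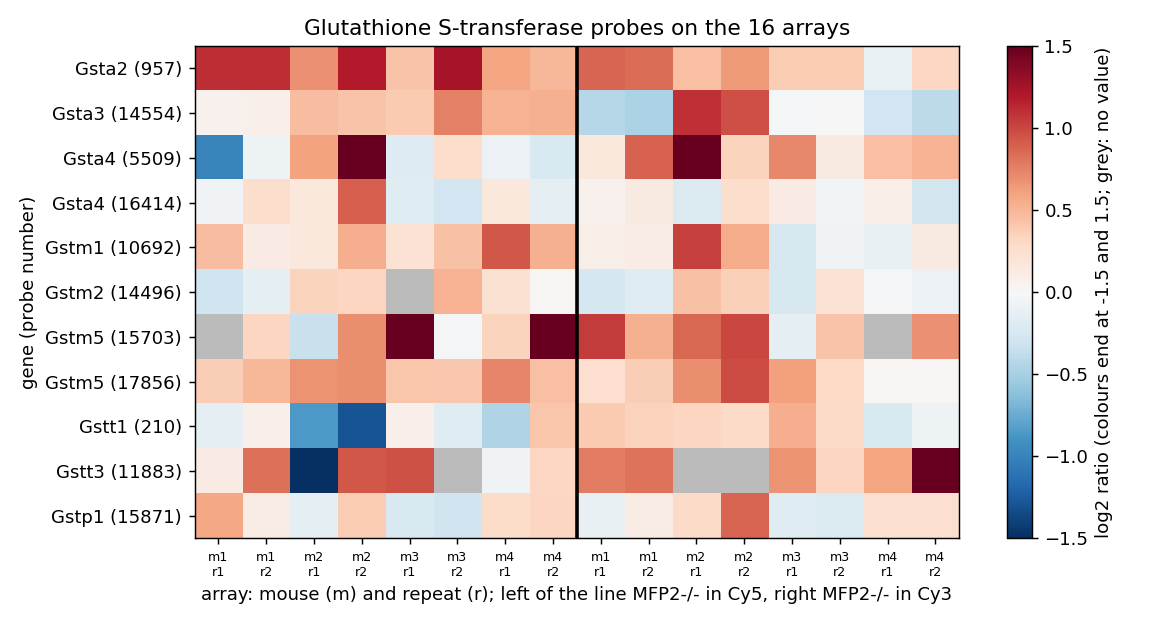
Log2 ratio of the 11 probes (rows) on the 16 arrays (columns; m is the mouse, r the repeat), with arrays that carry MFP2-/- in Cy5 left of the line and in Cy3 right of it; red is above the pool, blue below, grey has no value. Gstm5 probe 17856 is above 0 on all 16 arrays and Gsta2 on 15 of 16, while Gsta4 probe 5509, Gstm5 probe 15703 and Gstt3 hold single arrays at the ends of the scale.

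Differences between the 4 mice are not the mean that was in view when the genes were named, but that mean is built from the same mouse values. The choice of genes may therefore bear on the differences, and the member counts below are a description. The differences were tested on the 16 arrays with dye orientation as a covariate. By limma's F-test, adjusted by Benjamini-Hochberg over 19775 probes, 0 of the 10 member probes measured in both orientations in every mouse passed 0.05, beside 48 probes in all, or 0.243%. Their adjusted p ran between 0.246 and 0.965. At an unadjusted p under 0.05 there were 6 of the 10, beside 11.4% of all probes; these were Gsta3 (0.00992), Gstm2 (0.0103), Gsta2 (0.0130), Gsta4 probe 5509 (0.0240), Gstp1 (0.0379) and Gstm5 probe 17856 (0.0461). The order of mice was not the same for these probes. Mouse 1 was the highest for Gsta2 and the lowest for Gsta3, Gsta4 probe 5509 and Gstm2, while mouse 2 was the highest for those 3 and for Gstm5 probe 17856 and Gstp1. The error in this test is the spread between arrays of the same RNA, which is technical. The gene lists described below had, among their measured probes, 10 of 25 (Nrf2), 5 of 11 (conjugate export) and 9 of 26 (proximal tubule) at that unadjusted level. The others had 3 of 9 (thick limb to collecting duct), 8 of 32 (glomerular to blood cell), 3 of 14 (glutathione synthesis) and 2 of 14 (other transferases). These list totals include probes that lacked an orientation in a mouse and were not tested between mice. They are Hmox1 and Mafk (Nrf2), Egf (thick limb to collecting duct), Cdh5 probe 20239 and Kdr (glomerular to blood cell) and Slc3a2 (glutathione synthesis). The members' 6 of 10 is over tested probes only.

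Mouse 2 had the largest member values as a group. The median over the members was 0.17, 0.56, 0.25 and 0.27 in mice 1 to 4, beside medians of all probes within 0.01 of 0 in each mouse. Of the 11 probes, 7 were highest in mouse 2, 2 in mouse 3 and 1 each in mice 1 and 4. Gstt3, highest in mouse 3, had no value in mouse 2. Among all probes with a value in every mouse, 31.4% were highest in mouse 2. The members were named with their means in view, so that share is not a like baseline for them. Without mouse 2 the member median was 0.13, and the means of Gsta3 (0.06), Gsta4 probe 5509 (0.13), Gstm2 (0.02) and Gstp1 (0.07) all came closer to 0 than over 4 mice.

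Dye orientation shifted many probes, and it touched some members. Arrays of a mouse correlated with its dye-swapped arrays at a median of -0.157 (16 pairs, -0.302 to 0.243). Where the dye was kept and the mouse changed, the median was 0.184 (48 pairs, -0.017 to 0.482). It was 0.338 with mouse and dye both kept (8 pairs) and -0.101 with both changed (48 pairs). By these medians, arrays that shared only the dye were more alike than arrays that shared only the mouse. Over all probes, 8.45% differed between orientations at an adjusted p of 0.05 by limma's test of the orientation term, and 30.0% at an unadjusted p under 0.05. Of the 10 member probes tested, 0 passed after adjustment and 2 had an unadjusted p under 0.05, Gsta2 and Gstt1. Gsta2 averaged 0.86 with the mutant in Cy5 and 0.47 with the mutant in Cy3, a difference of 0.38 with an SE of 0.12 and an adjusted p of 0.0582, and both orientations were above 0. Gstt1 averaged -0.30 with the mutant in Cy5 and 0.24 with the mutant in Cy3, a difference of -0.53 with an SE of 0.19 and an adjusted p of 0.0836. The mean of Gstt1 near 0 is thus an average of means of opposite sign, but the size of the Cy5 mean rests on mouse 2, at -1.08. In mice 1, 3 and 4 Gstt1 stood at -0.04, -0.05 and -0.02 with the mutant in Cy5, and at 0.37, 0.42 and -0.15 in Cy3. Without mouse 2 its difference between orientations was -0.25, with an adjusted p of 0.289 by limma's orientation test.

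For Gsta3, mouse 2 departed from the other mice in this respect, which did not hold for every member. In mice 1, 3 and 4 Gsta3 was higher with the mutant in Cy5, at 0.07, 0.57 and 0.53, against -0.46, -0.01 and -0.34 with the mutant in Cy3. In mouse 2 Gsta3 was lower with the mutant in Cy5, at 0.45 against 1.03, as was Gstm1, at 0.35 against 0.79. Gsta2 (0.94 in Cy5 against 0.55 in Cy3) and Gstt1 (-1.08 against 0.31) kept in mouse 2 the direction of their means over mice. Across all probes, the difference between orientations correlated between mice 1, 3 and 4 with a Spearman rho of 0.465 to 0.587, and between mouse 2 and each of them with a rho of 0.094 to 0.195; probes of an array share its dyes and are not independent replicates. Without mouse 2, 17.4% of all probes passed limma's orientation test, and 3 of 11 member probes were among them, Gsta3 at 0.66 (adjusted p 0.00622), Gstm1 at 0.46 (adjusted p 0.0329) and Gsta4 probe 5509 at -0.70 (adjusted p 0.0399). Whether the high member values of mouse 2 share a source with its different dye behaviour was not tested.

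**Figure D3:**
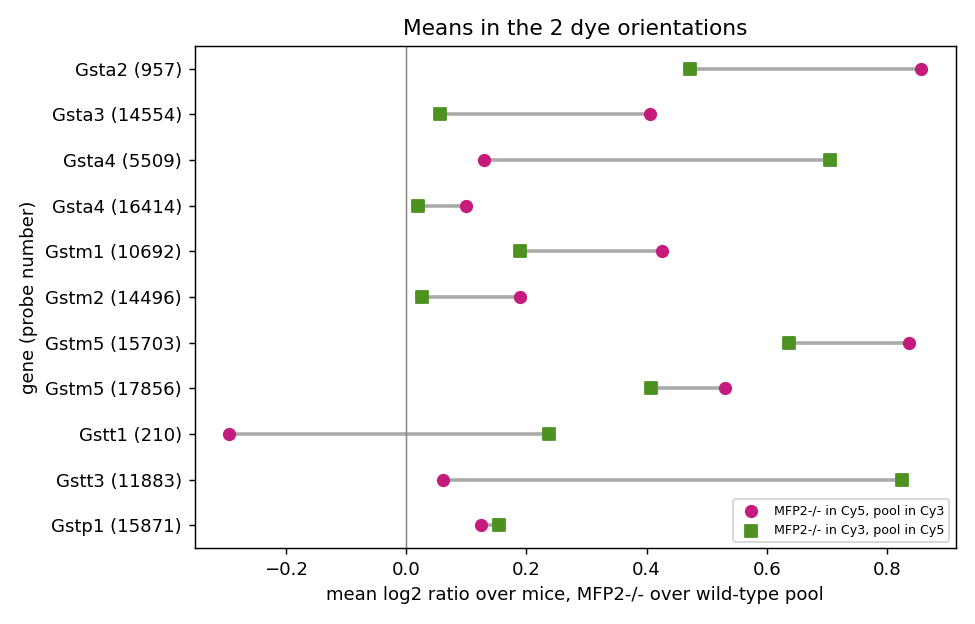
Mean log2 ratio over mice for each of the 11 probes with MFP2-/- in Cy5 (circles) and in Cy3 (squares); the grey line joins both orientations. The mean of Gstt1 differs in sign between orientations, the size of its Cy5 mean resting on mouse 2, at -1.08. Gsta2 and both Gstm5 probes stay above 0 in both orientations. Gstt3 lies at 0.06 with the mutant in Cy5 and at 0.83 in Cy3. Its Cy5 mean includes mouse 2, at -1.31, which has no Cy3 value. Without mouse 2 the Gstt3 difference between orientations was -0.40.

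Other glutathione transferases on the array lay about the pool. Their list had 11 of 19 genes measured, on 14 probes, with a median mean ratio of 0.00 and 7 of 14 above 0; 0 passed limma's adjusted test of MFP2-/- over pool, as did 0% of all probes, and 2 had an unadjusted p under 0.05, both higher. Over all probes, 5.83% were higher and 3.04% lower at that unadjusted level. The lists in this and the next paragraphs were drawn up with earlier results of these data known. Gsto1 probe 19467, of the omega class that reduces dehydroascorbate, averaged 0.32 ± 0.25, and Gstt2 averaged 0.31 ± 0.27 (SD, n = 4 each). The other Gsto1 probes, 6474 and 13902, averaged -0.09 and 0.01. Gstz1 probe 659, the zeta enzyme of tyrosine breakdown, averaged 0.24 ± 0.25 (SD, n = 4), at 0.41 with the mutant in Cy5 and 0.07 in Cy3, which passed the orientation test with an adjusted p of 0.0411; its other probe, 4661, averaged 0.10. The difference between the members and these genes was not tested, since the members were named with their means in view.

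Genes that make, recycle and break down glutathione lay around the pool. Of 20 listed, 11 were measured on 14 probes, with a median of -0.01, 6 probes above 0, 0 past the adjusted threshold and 1 with an unadjusted p under 0.05, which was lower. That was Cth, which makes cysteine for glutathione synthesis, with a mean of -0.27 ± 0.22; Chac2, a glutathione-degrading cyclotransferase, averaged 0.30 ± 0.34 on probe 3824 and Dpep1, a brush-border dipeptidase, -0.14 ± 0.14 (SD, n = 4 each). The other Chac2 probe, 7864, averaged 0.06. Conjugate export and mercapturic acid formation had 8 of 11 genes on 11 probes, with a median of 0.05, 7 above 0 and 0 past the adjusted threshold. Nat8, the N-acetyltransferase that completes mercapturic acids, averaged 0.43 ± 0.36 on probe 868 and 0.32 ± 0.40 on probe 1034 (SD, n = 4 each), both highest in mouse 2, at 0.94 and 0.84. Slc22a8, an organic anion carrier, averaged 0.21 ± 0.25 (SD, n = 4). Abcc3, a conjugate export pump, averaged 0.05 and differed between orientations, at -0.23 with the mutant in Cy5 and 0.33 in Cy3 (adjusted p 0.0435).

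Nrf2, its regulators and its other targets gave no adjusted call for MFP2-/- over pool either. Of 24 genes, 17 were measured on 25 probes, with a median of 0.04 and 18 above 0; 1 probe was higher and 1 lower at an unadjusted p under 0.05. Both of these were probes of Taldo1, transaldolase, and they disagreed in sign, at 0.22 ± 0.16 for probe 15521 and -0.24 ± 0.22 for probe 16334, while Txnrd1, thioredoxin reductase, averaged -0.14 ± 0.06 on probe 4524 (SD, n = 4 each). The other Txnrd1 probe, 9453, averaged 0.005. Prdx1, a peroxiredoxin, passed the test between mice with an adjusted p of 0.0216, at -0.21, 0.73, -0.15 and 0.29 in mice 1 to 4. It was highest in mouse 2 and lowest in mouse 1, an order also seen for Gsta3 and Gstm2 at both ends. Nfe2l2 itself, on probe 2071, averaged 0.09 and passed the orientation test (adjusted p 0.0487), as did 1 of the probes of Me1 (20071, adjusted p 0.0438) and of Fth1 (1293, adjusted p 0.0398).

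The kidney's cell type markers were read in the same way. Proximal tubule markers, 20 of 25 genes on 26 probes, had a median of 0.09 with 21 above 0, and 0 passed the adjusted test; 6 were higher and 2 lower at an unadjusted p under 0.05. Their medians were -0.04, 0.25, 0.03 and 0.22 in mice 1 to 4, so mouse 2 was highest and mouse 1 lowest, as for the members. The same held for the conjugate export list, at -0.07, 0.07, 0.04 and 0.05, and the Nrf2 list, at -0.09, 0.17, -0.01 and 0.01. Mouse 2 was also highest for the other glutathione transferases, but not for the glutathione synthesis list or the marker lists below. Miox, the proximal tubule's inositol oxygenase, passed the test between mice with an adjusted p of 0.0350, at -0.25, 1.25, 0.67 and 0.98. Napsa, an aspartic protease, averaged 0.56 ± 0.14 on probe 551, Slc27a2, a fatty acid transporter and acyl-CoA synthetase of peroxisomes, 0.41 ± 0.23 and Cubn, an endocytic receptor, 0.24 ± 0.10 (SD, n = 4 each). The other Napsa probe, 221, averaged 0.05 ± 0.17, and both probes lower at an unadjusted p under 0.05, named after their values were seen, were the phosphate transporter Slc34a1 at -0.20 ± 0.09 and the urate transporter Slc22a12 at -0.20 ± 0.14 (SD, n = 4 each). The part of tubule content in the members' values was not tested.

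Cyp4b1 (adjusted p 0.00643), Slc3a1 probe 877 (0.0312), Hnf4a probe 302 (0.0384) and Slc22a12 (0.0459) of the proximal tubule list differed between dye orientations. Markers of the thick limb, distal tubule and collecting duct, 8 of 16 genes on 9 probes, had a median of -0.04 with 4 above 0; Slc12a1, the thick limb cotransporter, averaged 0.56 ± 0.24, Aqp2, the collecting duct water channel, 0.46 ± 0.25, and Scnn1a, a sodium channel subunit, 0.17 ± 0.13 on probe 17012 (SD, n = 4 each). The other Scnn1a probe, 173, averaged -0.18 ± 0.33 (SD, n = 4), of opposite sign. Glomerular, endothelial, stromal and blood cell markers, 17 of 21 genes on 32 probes, had a median of -0.06 with 11 above 0, and 9 were lower and 2 higher at an unadjusted p under 0.05. The 9 lower probes belong to 4 genes, the globin Hba-a1 and the collagens Col1a1, Col1a2 and Col3a1, so they are not 9 separate markers. Col3a1 averaged -0.32 ± 0.15 and Hba-a1 probe 15327 -0.40 ± 0.22 (SD, n = 4 each). The endothelial cadherin Cdh5 averaged 0.64 ± 0.24 on probe 20239 (SD, n = 3), which lacked an orientation in mouse 1, and 0.21 ± 0.28 on probe 15616 (SD, n = 4). Probe 20239 stood at 0.13 with the mutant in Cy5 and 1.44 in Cy3, means that do not cover the same mice. Pvalb (adjusted p 0.0445) and C1qb (0.0158) differed between orientations. In neither list did a probe pass the adjusted test of MFP2-/- over pool. The files hold ratios and no intensities, so whether a marker was detected at all cannot be read from them.

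**Figure D4:**
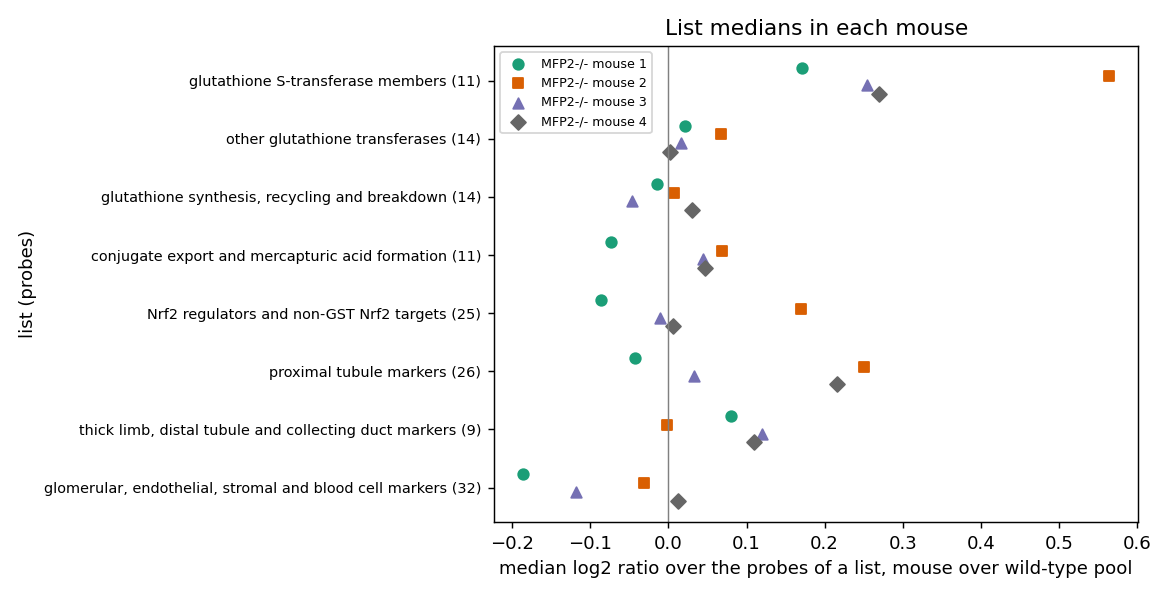
Median log2 ratio over the probes of each list (rows, number of probes in brackets) in each MFP2-/- mouse over the wild-type pool (x axis). The members' medians lie at 0.17 to 0.56, the other glutathione transferases' at 0.00 to 0.07, and the proximal tubule markers' at -0.04 to 0.25. Mouse 2 is highest for these and for the conjugate export and Nrf2 lists, and another mouse is highest for the rest.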

How the data were processed

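Kidney RNA of 4 MFP2-/- mice was measured against 1 pool of 5 wild-type males; 20 µg of total RNA per channel were labelled indirectly with Cy3 or Cy5, per the labels' protocols. The authors deposited 1 log2 ratio per probe and array; base, direction, background correction and normalisation are not stated in the sources used here. Base 2 is inferred from extreme spots with absolute values of 16.1 to 17.0. No intensities were used, so signal over background is unknown, and the number of arrays limits the precision. Arrays held 19737 to 20228 values, with medians of -0.149 to 0.098. Values over 10 in absolute size (510 spots, 0 of them in members) were treated as missing.

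Arrays were centred on their medians. A mouse value is the mean within each orientation and then of both. Means over mice were set against 0 in limma 3.58.1 (lmFit, eBayes, two-sided) in R 4.3.3 for the 20187 probes with both orientations in at least 3 mice. Differences between mice (F-test with a dye term) and between orientations (with a mouse term) were tested on 16 arrays. They covered 19775 probes with both orientations in all 4 mice, some of which lacked single arrays. Adjustment was Benjamini-Hochberg over all probes at 0.05. The random block used statmod 1.5.0. The self-test ran the same scripts on simulated data.

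Probe names are the platform's, updated by gene identifier through RefSeq (GRCm38.p6): of 20355 probes, 14030 had 1 symbol, 5 several and 6320 none, and 13994 were updated. The members, lists and tests were chosen with earlier results of these data known. Named were all members, Hsd17b4, the 3 probes of each list with the smallest p of MFP2-/- over pool and any list probe past a threshold. Alternatives were other centring, scaling, filters, probe averaging, single orientations or repeats, priors, terms, the Cy5-over-Cy3 reading and leaving out each mouse. Mice are numbered in accession order. The animal number of mouse 1 differs between array titles and source names, while its 4 arrays share 1 mouse identifier, and they were taken as 1 animal.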

Additional observations from a re-analysis of the deposited data

How the results depend on the processing

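The count of probes past the threshold for MFP2-/- over pool, 0 with mouse values, was 3 with the mutant in Cy5 only, 2 in Cy3 only, 13 when the values were read as Cy5 over Cy3, and 291 with the mouse as a random block. The random block fit estimated a correlation of 0.038 between arrays of a mouse. It therefore counts the arrays nearly as separate animals, although arrays of a mouse share RNA, and its 291 is not a count with mice as the n. Between mice, 48 probes became 21 with arrays scaled by median absolute deviation, 29 with probes of a gene averaged, 12 with no dye term, 2 under the Cy5-over-Cy3 reading, 0 with repeat 1 only, 0 with repeat 2 only, and 7 to 14 with a mouse left out. The 1671 probes differing between orientations became 3627 with no centring, 0 with repeat 1 only, 7 with repeat 2 only, 335 under the Cy5-over-Cy3 reading, and 49 without mouse 1, 3479 without mouse 2, and 104 and 101 without mice 3 and 4. No member passed between mice under any alternative. Member probes passing between orientations, 0 of 10, were 1 with no centring and 1 with trimmed-mean centring (Gsta2 in both), 3 under the Cy5-over-Cy3 reading and 0 to 3 with a mouse left out, the 3 being without mouse 2. The member median of 0.31 was 0.0618 under the Cy5-over-Cy3 reading, 0.38 with mice 1 and 2 only (an alternative added after seeing the data) and 0.13 to 0.36 with a mouse left out. Under that reading Gsta4 probe 5509 was -0.29 and Gstt3 -0.15, and Gsta2 was 0.19. Of 179 recomputed member means, 169 moved by less than the SD over mice, 8 moved by more with the same sign, and 2 moved by more to the opposite sign. In all, 6 had another sign than over 4 mice; besides Gsta4 probe 5509 and Gstt3, these were Gstt1 at 0.24 in Cy3 only and 0.09 without mouse 2, Gsta4 probe 16414 at -0.01 without mouse 2, and Gstp1 at -0.02 under the Cy5-over-Cy3 reading. Without the Cy5-over-Cy3 reading, Gsta2 ran between 0.47 and 0.86, Gstm5 probe 17856 between 0.37 and 0.58, and Gstt1 between -0.30 and 0.24. The causes of these shifts were not tested. No paired analysis was possible because every ratio is against the same pool and the replicate numbers only name the mice.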
